A study of Homo sapiens with 12 samples.

Results

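Clade B serpins are protease inhibitors of the serpin superfamily that mostly stay inside the cell. The 9 described here are SERPINB1 to SERPINB9, taken by symbol out of 56832 gene names in RNA sequencing counts of MDA-MB-468, a human line of basal-like breast cancer. The list was chosen by family on the known counts of all 4 groups, and no threshold was applied. Their levels and changes are therefore a description: each adjusted p below sets 1 difference against the spread between libraries, and the number of members past a threshold supports no statement on the family.

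The 4 groups of 3 libraries were cells stably carrying the vector pCDH-TRB, for thyroid hormone receptor beta, with T3 (TRB T3) and without it (TRB vehicle), and cells carrying the empty vector pCDH-EV with T3 (EV T3) and without it (EV vehicle). All were starved of hormone for 24 hours and then given 10 nM T3, the active thyroid hormone, or its NaOH vehicle for 24 hours. The labels give 1 stable line per vector, so TRB and EV libraries differ as those lines do. Whether the libraries of 1 group were grown apart is not stated, and p-values then measure the spread between the libraries alone, which may be technical.

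Gene counts came to between 4241863 and 11955825 per library, and each T3 library was deeper than any vehicle library. Alignments at more than 1 place made up 14.9% to 16.0% of the TRB T3 libraries, 17.6% to 23.3% of the TRB vehicle libraries, 16.4% to 17.6% of the EV T3 libraries and 20.5% to 24.5% of the EV vehicle libraries; their part in the results was not tested. THRB, the receptor gene, averaged 329 ± 16.7 CPM (counts scaled to library size with TMM factors) in TRB T3 libraries, 140 ± 4.15 in TRB vehicle, 38.5 ± 1.23 in EV T3 and 43.4 ± 0.824 in EV vehicle (SD, n = 3 each). Reads from the vector and from the endogenous THRB gene cannot be separated. KLF9, a T3 target, averaged 27.1 ± 0.382 CPM in TRB T3 against 2.44 ± 0.502 in TRB vehicle, and 13.0 ± 2.10 CPM in EV T3 against 2.95 ± 0.714 in EV vehicle, so the T3 labels and KLF9 went together in both lines. Basal-like epithelial markers summed to 5091 to 8004 CPM in all libraries. In bulk RNA, fewer cells expressing a gene and less of its RNA per cell cannot be told apart.

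An inhibitory serpin holds out a reactive loop as bait. The protease cuts the loop, the serpin snaps into a new fold, and the protease is trapped in a covalent complex. In epithelia and leukocytes, clade B members are known for guarding the cell against its own proteases, granule enzymes of immune cells and lysosomal cathepsins among them, and some members do not inhibit proteases at all. In the human genome they form a small cluster on chromosome 6 and a larger one on chromosome 18. Thyroid hormone receptors bind DNA at AGGTCA half-sites, classically paired, and T3 turns them from repressors to activators of many such targets.

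SERPINB3 and SERPINB4 are near-identical copies, and how far reads can be told apart between them bears on their values below. Their coding sequences (GENCODE 29, GRCh38, chromosome 18) aligned over 1173 columns without a gap and differed at 56 of them, an identity of 95.2%. The longest identical run was 129 bases. The differences were densest at coding bases 950 to 1069, where 18 positions, in capitals here, set the copies apart.

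SERPINB3: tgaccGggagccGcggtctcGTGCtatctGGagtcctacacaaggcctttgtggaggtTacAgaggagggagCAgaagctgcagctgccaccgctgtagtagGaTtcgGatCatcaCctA
SERPINB4: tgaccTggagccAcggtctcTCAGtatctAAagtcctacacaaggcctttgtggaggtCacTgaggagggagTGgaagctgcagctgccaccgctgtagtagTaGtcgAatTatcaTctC

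Of all 50-base windows of the SERPINB3 transcript, 413 of 1728 (23.9%) also occurred in another gene's transcript, SERPINB4, and 413 of 1700 (24.3%) of those of SERPINB4 occurred in SERPINB3. The 250 bases before the start of each gene (RefSeq, GRCh38.p14) differed at only 3 positions. Among the other pairs of members, coding identity ran from 53.0% (SERPINB2 with SERPINB5) to 72.9% (SERPINB8 with SERPINB9). SERPINB2 shared 23.7% of its windows with SERPINB10, whose annotation overlaps it, and SERPINB10 had 4 counts in the 12 libraries together.

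The upstream sequences of 4 members whose levels differed with T3 are shown because the half-site of the hormone's receptor can be looked for in them. They are the 250 bases before the annotated start, 5′ to 3′ on the gene's strand, from RefSeq (GRCh38.p14). Capitals mark AGGTCA on either strand (written TGACCT on the other strand) and TGANTCA, which reads the same on both strands for its fixed bases. TGANTCA, with any base at N, is a loose pattern that takes in the AP-1 element TGAGTCA and also other sequences. SERPINB1 lies at chr6:2841864-2842113 on the minus strand, SERPINB9 at chr6:2903310-2903559 on the minus strand, SERPINB2 at chr18:63887455-63887704 on the plus strand and SERPINB7, shown at the second of its 3 listed starts, at chr18:63775168-63775417 on the plus strand.

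SERPINB1: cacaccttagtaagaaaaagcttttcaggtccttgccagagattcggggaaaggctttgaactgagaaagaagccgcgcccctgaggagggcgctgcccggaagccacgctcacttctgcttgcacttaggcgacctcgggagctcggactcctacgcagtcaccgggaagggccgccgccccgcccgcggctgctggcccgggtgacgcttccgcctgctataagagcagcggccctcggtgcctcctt
SERPINB9: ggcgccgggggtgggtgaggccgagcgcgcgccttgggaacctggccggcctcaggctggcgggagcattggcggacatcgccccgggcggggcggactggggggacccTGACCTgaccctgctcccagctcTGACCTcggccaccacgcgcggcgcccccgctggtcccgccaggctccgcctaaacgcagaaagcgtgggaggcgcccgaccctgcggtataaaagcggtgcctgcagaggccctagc
SERPINB2: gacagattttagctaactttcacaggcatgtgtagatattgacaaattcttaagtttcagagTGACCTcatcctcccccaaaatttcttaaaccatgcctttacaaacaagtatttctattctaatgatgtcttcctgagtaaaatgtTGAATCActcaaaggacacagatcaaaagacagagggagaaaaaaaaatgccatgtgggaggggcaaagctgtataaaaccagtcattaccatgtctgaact
SERPINB7: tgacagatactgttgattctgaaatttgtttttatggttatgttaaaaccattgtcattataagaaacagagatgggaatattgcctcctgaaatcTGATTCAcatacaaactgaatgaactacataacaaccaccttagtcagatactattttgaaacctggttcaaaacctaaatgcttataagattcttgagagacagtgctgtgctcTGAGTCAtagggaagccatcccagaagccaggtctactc

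All 9 members matched the promoter table, with 14 starts between them. AGGTCA occurred before 2 of the 14 starts: in SERPINB9 it began 141 and 118 bases before the start, and in SERPINB2 188 bases before it. Of 35116 promoters in the table, 12.1% held it in a window of the same length. The direct repeat, AGGTCA followed after 4 bases by AGGTCA again, occurred before 0 of the 14 starts and in 5 of all promoters (0.0142%). TGANTCA occurred before 5 of the 14 starts, against 6.57% of all promoters, and its matches do not overlap those of AGGTCA. The 5 starts belong to SERPINB2, SERPINB5, SERPINB7 and SERPINB8, all on chromosome 18. The AP-1 element TGAGTCA was matched only in SERPINB7 and SERPINB8, and the match in SERPINB2 and that in SERPINB5 read TGAATCA. These matches describe letters in a window and nothing about binding.

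T3 was first compared with vehicle in the line that carries the receptor vector. The 3 members of the chromosome 6 cluster, SERPINB1, SERPINB9 and SERPINB6, rose, the chromosome 18 members SERPINB5 and SERPINB7 fell, and SERPINB8 was not called. These 6 were at or above the 1.04 CPM that the filter on low counts asks for in all 12 libraries. SERPINB2 and SERPINB3 passed the filter through their EV libraries (3 of 3 with T3 and 3 of 3 with vehicle, and only 1 TRB vehicle and 0 TRB T3 libraries each). They are therefore given by levels and by a fit with no filter, and are left out of the counts of called members until the closing sections. SERPINB4 had too few counts to be tested. By quasi-likelihood tests in edgeR, with p adjusted over 14549 genes by Benjamini-Hochberg and a threshold of 0.05, 44.4% of all genes tested were called in this comparison, 22.4% higher and 21.9% lower. Of the 6 members at the cutoff in all libraries, groups did not overlap for SERPINB1, SERPINB5, SERPINB6, SERPINB7 and SERPINB9, against 51.9% of all genes tested. Log2 fold changes below are T3 over vehicle, or TRB over EV, with their SE.

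**Figure D1:**
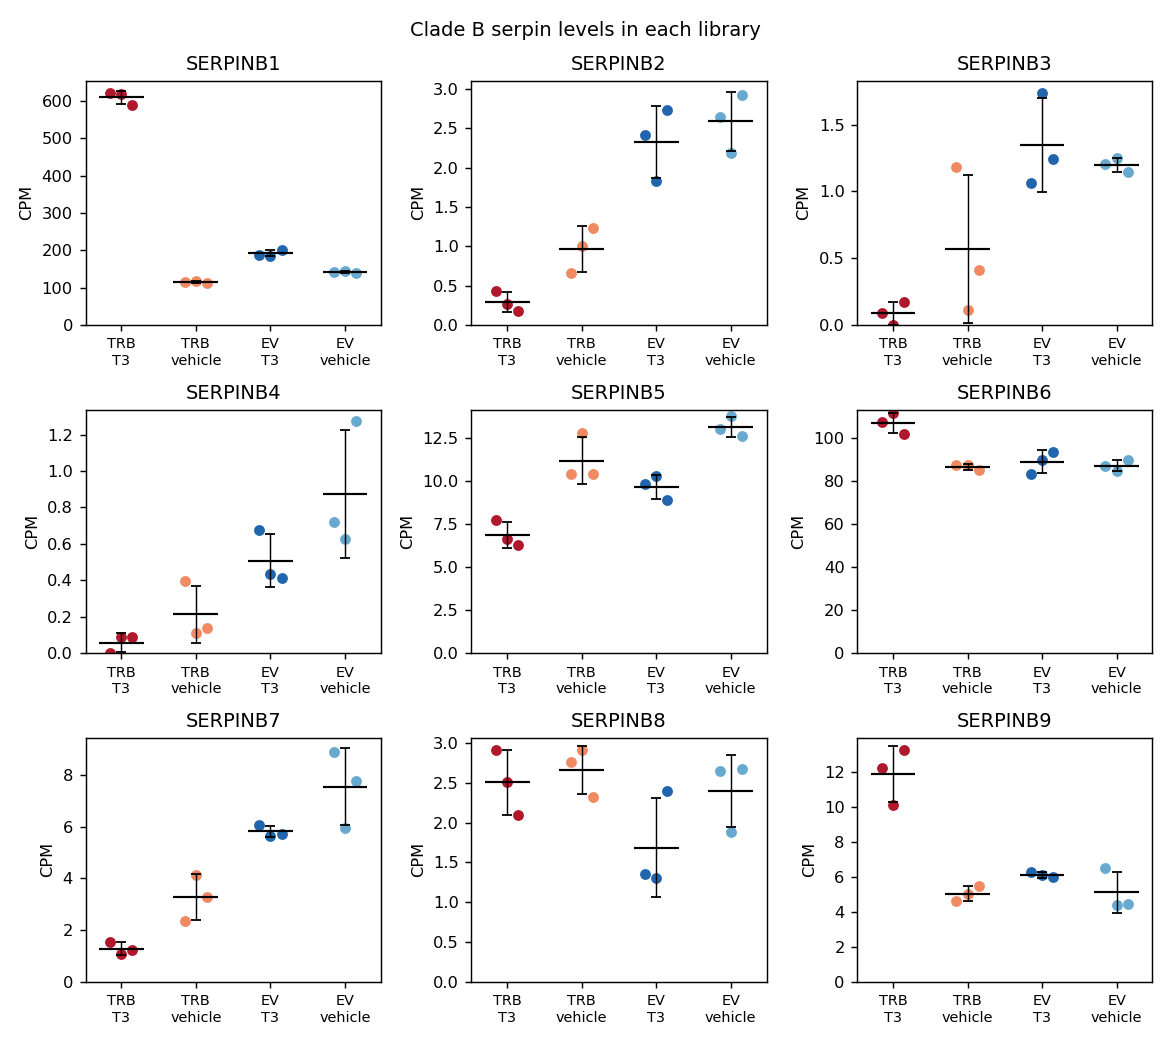
Level of each clade B serpin in every library, in CPM on a linear axis that starts at 0; points are libraries, horizontal lines group means and bars SD (n = 3 per group: TRB T3, TRB vehicle, EV T3, EV vehicle). SERPINB1 stood at 591 to 622 CPM in the TRB T3 libraries, above every other library, while SERPINB7 and SERPINB2 were lowest there.

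SERPINB1 (chromosome 6, 2832332 to 2842006, minus strand), an inhibitor of neutrophil elastase, cathepsin G and proteinase 3, was the most abundant member with T3 in both lines. Its level was 622, 619 and 591 CPM in TRB T3 libraries and 114, 119 and 112 CPM in TRB vehicle libraries. In the EV line it was 188, 186 and 202 CPM with T3 and 141, 145 and 139 CPM with vehicle. The groups did not overlap in any of the 4 pairs compared, and with vehicle the TRB libraries were the lowest of all. T3 raised SERPINB1 5.31-fold in TRB cells (log2 fold change 2.41 ± 0.041, adjusted p = 2.19e-55, edgeR) and 1.35-fold in EV cells (0.44 ± 0.044, adjusted p = 9.40e-12). The T3 effect was larger in TRB than in EV cells by 1.97 ± 0.061 on the log2 scale (adjusted p = 1.24e-38, edgeR interaction term). Between the lines, SERPINB1 was 3.18-fold higher in TRB than in EV cells with T3 (log2 1.67 ± 0.038, adjusted p = 3.75e-48) and lower in TRB with vehicle (-0.30 ± 0.048, adjusted p = 1.82e-06).

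SERPINB9 (chromosome 6, 2887266 to 2903280, minus strand) inhibits granzyme B, the death protease of cytotoxic lymphocytes, and protects cells that meet or make it. It stood at 12.3, 10.1 and 13.3 CPM in TRB T3 libraries against 4.60, 5.04 and 5.47 CPM in TRB vehicle libraries. The EV libraries held 6.27, 6.09 and 5.97 CPM with T3 against 6.50, 4.38 and 4.46 CPM with vehicle. All 3 TRB T3 libraries were above the other 9, and the EV groups overlapped. SERPINB9 rose 2.36-fold with T3 in TRB cells (log2 1.24 ± 0.15, adjusted p = 1.13e-10). Its value in EV cells was 0.31 ± 0.19 (adjusted p = 0.418), and the difference between the 2 effects was 0.93 ± 0.25 (adjusted p = 0.00278). Without T3 the lines differed by 0.036 ± 0.20 (adjusted p = 0.942, 95% interval -0.37 to 0.44), and with T3 SERPINB9 was 1.95-fold higher in TRB than in EV cells (log2 0.96, adjusted p = 5.51e-09). Granzyme B itself (GZMB) had 0 counts in all 12 libraries.

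SERPINB6 (chromosome 6, 2948159 to 2972165, minus strand), an inhibitor of cathepsin G and trypsin-like proteases, moved least of the 3. Its values were 107, 112 and 102 CPM in TRB T3 libraries against 87.3, 87.5 and 85.1 CPM in TRB vehicle libraries, and 83.1, 90.0 and 93.6 CPM in EV T3 libraries against 87.1, 84.5 and 89.9 CPM in EV vehicle libraries. The TRB T3 libraries stood above all others. The change in TRB cells was 1.23-fold (log2 0.30 ± 0.050, adjusted p = 4.61e-07), with 0.028 ± 0.054 in EV cells (adjusted p = 0.867) and a difference of 0.28 ± 0.074 (adjusted p = 0.00278).

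SERPINB1 and SERPINB9 are also leukocyte genes, so leukocyte markers were read beside them. The 6 leukocyte markers summed to 182 to 194 CPM in TRB T3 libraries and 17.6 to 21.7 CPM in TRB vehicle libraries, and to 49.8 to 53.0 CPM in EV T3 and 28.2 to 32.7 CPM in EV vehicle libraries. CD14 made up nearly all of this, averaging 187 ± 6.47 CPM in TRB T3 and 19.6 ± 2.10 CPM in TRB vehicle libraries. PTPRC, the gene of the pan-leukocyte antigen CD45, had 11 counts over the TRB T3 group, 1 over TRB vehicle, 10 over EV T3 and 2 over EV vehicle, and LYZ had 0 everywhere. CD14 was thus higher with T3 in both lines (log2 3.25 in TRB and 0.80 in EV cells). PTPRC counts were low in every group, and PTPRC was not tested. Scaled to depth, it stood at 0.269 to 0.349 CPM in TRB T3 against 0 to 0.137 CPM in TRB vehicle libraries. Its EV groups overlapped, at 0.0964 to 0.498 CPM with T3 and 0 to 0.157 CPM with vehicle. Any part of these changes in those of SERPINB1 and SERPINB9 was not tested.

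SERPINB5 (chromosome 18, 63476761 to 63505085, plus strand) encodes maspin, a member without protease inhibition that is made by mammary myoepithelial cells and is known as a tumour suppressor in the breast. It was the most abundant chromosome 18 member in every group. The TRB libraries held 7.71, 6.65 and 6.29 CPM with T3 against 10.4, 12.8 and 10.4 CPM with vehicle. In the EV line it stood at 9.83, 10.3 and 8.87 CPM with T3 against 13.0, 13.8 and 12.6 CPM with vehicle. Neither pair overlapped, and T3 libraries were the lower in both lines. SERPINB5 fell 1.63-fold in TRB cells (log2 -0.71 ± 0.13, adjusted p = 9.48e-06) and 1.36-fold in EV cells (-0.44 ± 0.13, adjusted p = 0.0318). The call in EV cells did not hold with DESeq2 (-0.44, adjusted p = 0.180) or without any 1 of 5 single libraries (adjusted p between 0.0524 and 0.131). The T3 effects of the 2 lines differed by -0.27 ± 0.19 (adjusted p = 0.335, 95% interval -0.63 to 0.10), so no difference was detected. Of 7 basal-like epithelial markers tested, 5 fell with T3 in TRB cells and 1, CDH1, rose (log2 0.34). Of all genes tested, 21.9% fell and 22.4% rose there. With T3 in EV cells 2 of the 7 fell and 0 rose, where 1.7% of all genes fell. With vehicle 5 of the 7 were lower in TRB than in EV cells, against 7.4% of all genes, and SERPINB5 was not called (adjusted p = 0.312, edgeR). All 8 markers summed to 5091 to 5292 CPM in TRB T3 libraries against 6258 to 6278 CPM in TRB vehicle libraries. In EV T3 libraries the sum was 7145 to 7691 CPM, against 7677 to 8004 CPM in EV vehicle libraries. EGFR made up most of that sum (4274 ± 69.8 CPM in TRB T3 and 4421 ± 63.9 CPM in TRB vehicle libraries, not called). The basal keratins, named here after their values were seen, fell further with T3 in TRB cells: KRT5 4.02-fold, KRT6A 4.19-fold, KRT17 3.04-fold and KRT14 2.49-fold. Their part in the fall of SERPINB5 was not tested.

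SERPINB7 (chromosome 18, 63752935 to 63805376, plus strand), also called megsin, is expressed in epidermis and kidney mesangium, and loss of it causes a palmoplantar keratosis. It stood at 1.54, 1.08 and 1.22 CPM in TRB T3 libraries and 2.37, 4.14 and 3.28 CPM in TRB vehicle libraries. EV libraries held 6.07, 5.65 and 5.72 CPM with T3 and 8.90, 5.95 and 7.77 CPM with vehicle. All TRB libraries were below all EV libraries, and the TRB T3 libraries were lowest. SERPINB7 was 2.24-fold lower in TRB than in EV cells with vehicle (log2 -1.16 ± 0.21, adjusted p = 2.51e-05) and 4.49-fold lower with T3 (-2.17 ± 0.22, adjusted p = 4.13e-13). T3 lowered it 2.56-fold in TRB cells (-1.36 ± 0.27, adjusted p = 2.27e-05), with -0.35 ± 0.18 in EV cells (adjusted p = 0.317) and a difference of -1.005 ± 0.32 between the effects (adjusted p = 0.0155). That difference was not called without TRB vehicle replicate 2 (-0.77, adjusted p = 0.127), TRB T3 replicate 2 (adjusted p = 0.0505) or EV vehicle replicate 2 (adjusted p = 0.0541), nor by DESeq2 (adjusted p = 0.0870).

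SERPINB2 (chromosome 18, 63871692 to 63903890, plus strand) is plasminogen activator inhibitor 2, which inhibits urokinase. Its levels were 0.428, 0.269 and 0.175 CPM in TRB T3 libraries and 0.657, 1.01 and 1.23 CPM in TRB vehicle libraries, from 10 and 23 counts in all. In the EV line they were 2.41, 1.83 and 2.74 CPM with T3 and 2.65, 2.19 and 2.93 CPM with vehicle, from 79 and 48 counts. TRB and EV libraries did not overlap with either treatment. In the fit with no filter on low counts, TRB against EV gave -1.43 ± 0.38 with vehicle (adjusted p = 0.00454, edgeR) and -2.95 ± 0.41 with T3 (adjusted p = 8.22e-12). T3 against vehicle gave -1.68 ± 0.53 in TRB cells (adjusted p = 0.0103) and -0.15 ± 0.29 in EV cells (adjusted p = 0.972). The value in TRB cells was -1.36 and not called with all libraries thinned to 4241863 counts (adjusted p = 0.173), and with the TRB libraries fitted alone SERPINB2 did not pass the filter. The difference between the effects was -1.53 ± 0.61 and not called with no filter (adjusted p = 0.0991); with the filter it lay near the threshold (-1.52, adjusted p = 0.0483).

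SERPINB3 and SERPINB4 are the squamous cell carcinoma antigens; SERPINB3 inhibits the cysteine cathepsins L, S and K, and SERPINB4 inhibits cathepsin G and mast cell chymase. SERPINB3 (chromosome 18, 63655197 to 63661963, minus strand) had 1, 0 and 2 counts in TRB T3 libraries and 9, 1 and 3 in TRB vehicle libraries, with 11, 20 and 15 in EV T3 and 5, 8 and 9 in EV vehicle libraries. SERPINB4 (63637259 to 63644298, minus strand) had 0, 1 and 1 counts in TRB T3, 3, 1 and 1 in TRB vehicle, 7, 5 and 5 in EV T3 and 3, 4 and 10 in EV vehicle libraries. Both genes were thus close to 0 in TRB cells with T3 and low elsewhere. Reads that align equally well to both copies fall under alignments at more than 1 place, which were counted for no gene. Because other reads may be counted for the wrong copy, both genes were also read as a sum. The sum does not recover the reads left out.

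In TRB T3 libraries SERPINB3 was 15.5-fold lower than in EV T3 libraries by summed counts (95% counting interval 4.98 to 77.8), and SERPINB4 was 8.58-fold lower (2.04 to 76.6). The sum of the pair stood at 0.0857, 0.0898 and 0.262 CPM in TRB T3 libraries against 1.74, 2.17 and 1.66 CPM in EV T3 libraries, with no overlap, a level 12.7-fold lower by summed counts (5.17 to 40.5). With vehicle it was 1.58, 0.224 and 0.547 CPM in TRB against 1.93, 1.88 and 2.42 CPM in EV libraries, also without overlap and 2.81-fold lower (1.57 to 5.22). For T3 against vehicle in TRB cells the sum was 5.17-fold lower by 5 against 18 counts (1.85 to 17.8), and its groups overlapped, as did those of SERPINB3 alone. Most of the 18 vehicle counts, 12, came from replicate 1. In the fit with no filter, SERPINB3 alone gave -3.77 ± 0.61 for TRB against EV with T3 (adjusted p = 1.23e-08, edgeR), -1.11 ± 0.53 with vehicle (adjusted p = 0.299) and -2.47 ± 0.80 for T3 in TRB cells (adjusted p = 0.0122). TRB vehicle replicate 1 decided the last of these: without it, with the filter, the value for SERPINB3 was -1.36 (adjusted p = 0.321), and without TRB T3 replicate 2 it was -1.96 (adjusted p = 0.0537). In EV cells SERPINB3 gave 0.19 ± 0.41 with no filter (adjusted p = 0.989). The T3 effects of the 2 lines differed by -2.66 ± 0.90 with no filter (adjusted p = 0.0347), a call lost without TRB vehicle replicate 1 (-1.54, adjusted p = 0.379), without 3 other single libraries and by DESeq2 (adjusted p = 0.0958).

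SERPINB8 (chromosome 18, 63969925 to 64019779, plus strand), an inhibitor of the proprotein convertase furin, was the tested member with no call in any comparison. It stood at 2.91, 2.51 and 2.10 CPM in TRB T3, 2.76, 2.91 and 2.32 in TRB vehicle, 1.35, 1.30 and 2.40 in EV T3 and 2.65, 1.88 and 2.68 in EV vehicle libraries, and the groups overlapped in all 4 pairs. The T3 value in TRB cells was -0.095 ± 0.25 (adjusted p = 0.793, 95% interval -0.59 to 0.40). With T3, TRB was above EV by 0.55 ± 0.26 (adjusted p = 0.0804), a difference that passed without EV T3 replicate 3 (0.91, adjusted p = 0.0143).

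**Figure D2:**
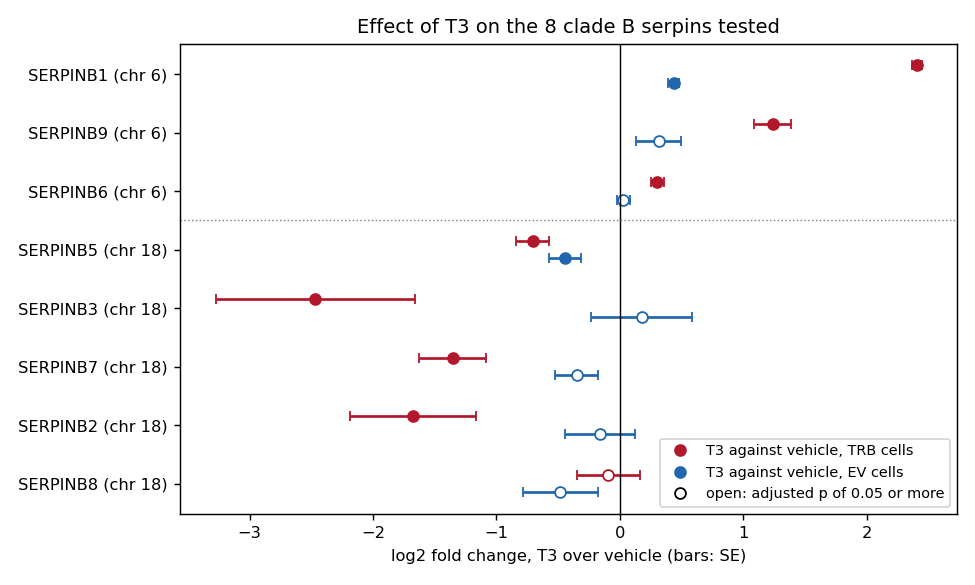
Log2 fold change, T3 over vehicle, of the 8 members tested, in TRB cells (red) and EV cells (blue); bars are SE, and open points had an adjusted p of 0.05 or more (edgeR, n = 3 per group; SERPINB2 and SERPINB3 passed the filter through EV libraries). The chromosome 6 members lie right of 0 in TRB cells, from 0.30 to 2.41. All 5 chromosome 18 members tested lie left of it, 4 from -2.47 to -0.71 and SERPINB8, not called, at -0.095.

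Of the 6 members at the cutoff in all libraries, 5 were called for T3 in TRB cells, 3 higher and 2 lower. The counts of the other comparisons, over the same 6, are given with their backgrounds. T3 in EV cells raised SERPINB1 and lowered SERPINB5, 2 of 6, where 4.54% of all genes were called, 2.84% higher and 1.7% lower. The same 2 were those of the 6 whose groups did not overlap, against 20.5% of genes. TRB cells against EV cells with vehicle had SERPINB1 and SERPINB7 lower and 0 members higher (0 also by DESeq2 and at an unadjusted edgeR p below 0.05), with 15.3% of all genes called, 7.86% higher and 7.4% lower. Of the 6, groups did not overlap for SERPINB1 and SERPINB7, against 30.1% of genes. With T3, 3 were higher in TRB than in EV cells (SERPINB1, SERPINB6 and SERPINB9) and 2 lower (SERPINB5 and SERPINB7), with 40.7% of genes called, 21% higher and 19.7% lower. Groups did not overlap for these same members, all of the 6 but SERPINB8, against 47.6% of genes. SERPINB5 was then 1.40-fold lower in TRB cells (log2 -0.48 ± 0.13, adjusted p = 0.00153), a call lost when libraries were thinned to equal depth (-0.36, adjusted p = 0.191). The T3 effect differed between the lines for 4 of the 6, SERPINB1, SERPINB6, SERPINB7 and SERPINB9, where 23.9% of genes were called, 12.3% with a larger and 11.6% with a smaller value in TRB cells. These comparisons share libraries, so their counts are not independent of each other.

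Levels were also set per kilobase of the transcript with the longest coding sequence, and on this scale the order of the members changed with T3. The place of SERPINB6 depends on the length used. Its transcript had 1566 bases and all its annotated exons cover 13201, against 2619 and 3094 for SERPINB1. In CPM without a length, SERPINB1 stood above SERPINB6 in every group. SERPINB1 led in TRB T3 libraries at 233 ± 6.66 CPM per kb, ahead of SERPINB6 at 68.3 ± 3.06, and in TRB vehicle libraries it stood at 43.9 ± 1.33, below SERPINB6 at 55.3 ± 0.833. In EV T3 libraries SERPINB1 was at 73.3 ± 3.25 and SERPINB6 at 56.8 ± 3.41, and in EV vehicle libraries they were at 54.2 ± 1.02 and 55.7 ± 1.73, within their spread. SERPINB9 came next in TRB T3 libraries at 2.89 ± 0.387, within its spread of SERPINB5 at 2.47 ± 0.267. In the other groups SERPINB5 came next, at 4.02 ± 0.494 in TRB vehicle, 3.47 ± 0.256 in EV T3 and 4.72 ± 0.212 in EV vehicle libraries, followed by SERPINB7, at 1.48 ± 0.404, 2.64 ± 0.102 and 3.42 ± 0.677 in the same groups. SERPINB2, SERPINB3, SERPINB4 and SERPINB8 stayed below 1.21 CPM per kb throughout.

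Summed over the 9 members, levels came to 741 ± 21.5 CPM in TRB T3 and 225 ± 6.20 CPM in TRB vehicle libraries, and to 308 ± 12.6 CPM in EV T3 and 262 ± 2.36 CPM in EV vehicle libraries. SERPINB1 alone made up 82.4% of that sum in TRB T3 against 51.0% in TRB vehicle, and 62.3% in EV T3 against 54.2% in EV vehicle libraries. The 6 chromosome 18 members together gave 11.1 ± 1.39 CPM in TRB T3 against 18.9 ± 1.91 CPM in TRB vehicle, and 21.3 ± 0.0987 CPM in EV T3 against 27.7 ± 1.82 CPM in EV vehicle libraries.

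The members that rose and those that fell lay on different chromosomes. SERPINB1, SERPINB9 and SERPINB6 are the whole chromosome 6 cluster, over 139.8 kb, and the chromosome 18 cluster holds the other 6 members and SERPINB10 to SERPINB13 over 543 kb. The 3 nearest tested protein-coding genes on each side were read beside them. On chromosome 6, WRNIP1 (0.26 ± 0.045, adjusted p = 2.08e-06) and MYLK4 (0.42 ± 0.11, adjusted p = 0.000674) rose with T3 in TRB cells and GMDS fell (-0.50 ± 0.054, adjusted p = 2.13e-12). NQO2, RIPK1 and BPHL on the other side had values between -0.027 and 0.016 and were not called. On chromosome 18, BCL2, KDSR and VPS4B had values between -0.22 and -0.045 and were not called. Of the genes beyond SERPINB8, TMX3 (0.031, adjusted p = 0.756 by edgeR) was not called and RTTN (0.34) and SOCS6 (0.35) rose. The call of RTTN was lost in 2 of 14 alternative ways of processing (values from 0.18 to 0.39), and that of SOCS6 held in all 14. TMX3 starts at 68673688, well beyond the cluster.

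**Figure D3:**
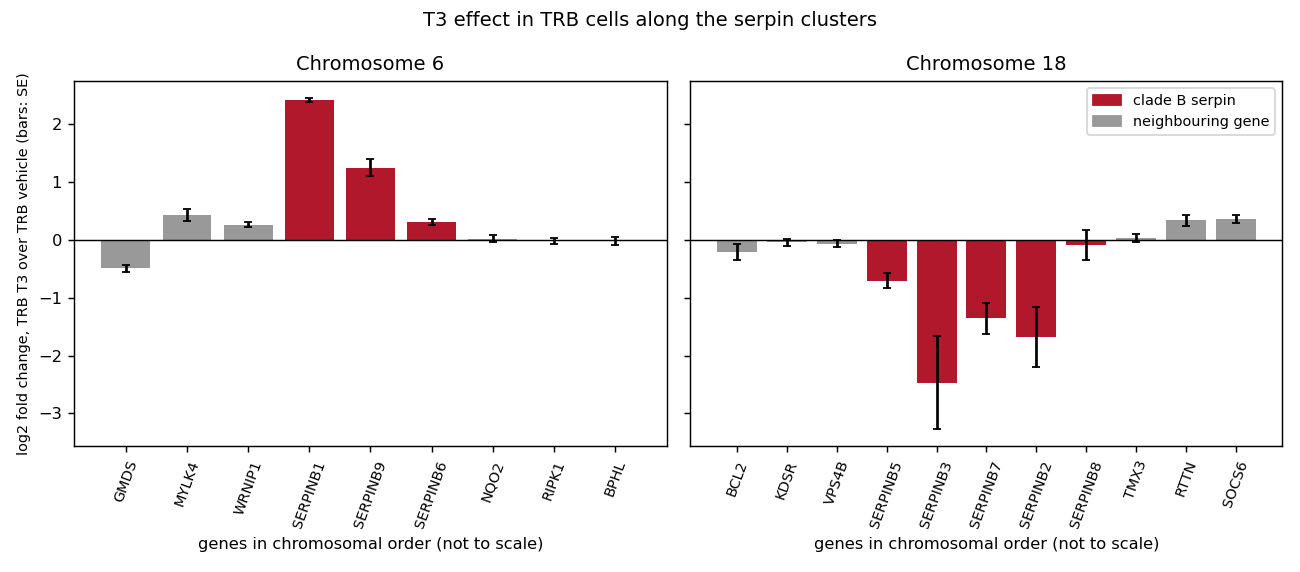
Log2 fold change, TRB T3 over TRB vehicle, of the tested members (red) and the 3 nearest tested protein-coding genes on each side (grey), in chromosomal order and not to scale; bars are SE (edgeR, n = 3 per group). SERPINB1, SERPINB9 and SERPINB6 stand at 2.41, 1.24 and 0.30, and SERPINB5, SERPINB3, SERPINB7 and SERPINB2 at -0.71, -2.47, -1.36 and -1.68.

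The remaining clade B genes, all on chromosome 18, were too low to be tested. SERPINB11 had 0 counts in every library, SERPINB10 had 4 in all and SERPINB12 had 6, of which 5 were in TRB T3 libraries. SERPINB13, an inhibitor of cathepsins L and K in keratinocytes, had 1 count over the TRB T3 group against 20 over EV T3, a 20.2-fold lower level (95% counting interval 3.23 to 837). With vehicle it had 1 count in TRB against 12 in EV libraries, 15.6-fold lower (2.30 to 665). It was thus lower in TRB than in EV libraries with either treatment, like SERPINB2 and SERPINB7, and intervals from so few counts cover counting error only.

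Across the 12 libraries, log2 CPM of the chromosome 6 members correlated with each other at Pearson r of 0.84 to 0.94, and those of SERPINB2, SERPINB3, SERPINB5 and SERPINB7 at 0.59 to 0.98, while between these sets r ran from -0.88 to -0.65. SERPINB8 correlated with the others at -0.45 to 0.32. The chromosome 18 set was formed from the members lower with T3 in TRB cells in these same libraries, and SERPINB8 was set apart. The signs of r within and between the sets were thus largely fixed by that choice. The 12 libraries fall into 4 groups, so these values, given without p, describe mostly the group means. Of the genes that averaged at least 1 CPM, RCSD1 (r = 0.997), whose product binds actin capping protein, was near to SERPINB1. RCSD1 averaged 71.4 CPM in TRB T3 against 5.19 CPM in TRB vehicle libraries. The nearest to SERPINB9 were PTK7 (0.984) and SP140L (0.976), and to SERPINB6 ELL2 (0.977) and UQCRC1 (0.970).

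SERPINB2 was nearest to its cluster neighbour SERPINB7 (r = 0.975) and to ACTBL2 (0.974). SERPINB7 was nearest to KRT15 (0.980), a keratin of basal cells, and the cell cycle kinase gene CDK6 (0.980), which averaged 61.3 CPM in TRB T3 against 84.5 CPM in TRB vehicle libraries and 115 CPM in EV T3 against 129 CPM in EV vehicle libraries. PDE8A (0.973) and KRT23 (0.953) were nearest to SERPINB5, MTHFD1L (0.941) and SIPA1 (0.940) to SERPINB3, and SLC39A9 (0.924) and CAPRIN1 (0.917) to SERPINB8.

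Proteases and partners that clade B serpins are known to meet were read as a list of 29 genes, 16 of which could be tested. With T3 in TRB cells 11 rose and 1 fell by edgeR (10 and 1 by DESeq2), where 22.4% of all genes rose and 21.9% fell, with a median log2 fold change of 0.51 against -0.0017 over all genes tested. FURIN, the target of SERPINB8, averaged 168 ± 5.93 CPM in TRB T3 against 30.0 ± 1.94 CPM in TRB vehicle libraries (SD, n = 3 each; log2 2.48 ± 0.058, adjusted p = 2.41e-47), while SERPINB8 itself was not called. Urokinase (PLAU), the target of SERPINB2, rose by 0.45 ± 0.083 on the log2 scale (adjusted p = 5.42e-06) and its receptor PLAUR by 0.98 ± 0.071 (adjusted p = 8.28e-20), in the comparison in which SERPINB2 had 10 against 23 counts.

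Cathepsin S (CTSS), a target of SERPINB3, averaged 29.8 ± 0.554 CPM in TRB T3 against 10.8 ± 0.714 CPM in TRB vehicle libraries (log2 1.46 ± 0.10, adjusted p = 4.32e-20), and cathepsin L (CTSL) rose by 0.35 ± 0.11 with edgeR (adjusted p = 0.00535), a call that DESeq2 did not make (0.35, adjusted p = 0.0594) and thinning ended (0.33, adjusted p = 0.0830). CTSK, named after its values were seen, was not called (-0.19, adjusted p = 0.379). CTSH fell (-0.46, adjusted p = 1.40e-12) and CTSV was not called (-0.34, adjusted p = 0.0543). CASP1, an inflammatory caspase, rose by 0.56 and the epidermal kallikreins KLK5 and KLK7 by 0.64 and 2.57, and the membrane protease gene ST14 was not called (0.078, adjusted p = 0.0963). The elastase, cathepsin G and proteinase 3 genes that SERPINB1 is known for belong to neutrophils and were too low to be tested. Named after their values were seen, ELANE had 5 counts over the TRB T3 group and 0 in each other group, PRTN3 had 8 over TRB T3, 1 over TRB vehicle, 1 over EV T3 and 0 over EV vehicle, and CTSG had 0 in all. With T3 in EV cells 4 of the 16 rose and 0 fell by edgeR, where 4.54% of all genes were called. The counts were 3 and 0 by DESeq2, and 4 and 1 at an unadjusted edgeR p below 0.05. Among the 4 were CTSS (0.39, adjusted p = 0.0253, edgeR), KLK7 (1.25, adjusted p = 0.00620) and ST14 (0.14, adjusted p = 0.0173). The EV groups of CTSS overlapped, at 18.8 to 21.4 CPM with T3 against 11.6 to 18.9 CPM with vehicle, and those of KLK7 and ST14 did not. The difference between the T3 effects was called for 10 of the 16, against 23.9% of all genes, 9 larger in TRB cells, FURIN (2.36), CTSS (1.07) and PLAUR (0.89) among them, and 1 smaller, CTSH (-0.38).

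Serpins of other clades were a list of 23 genes, of which 6 could be tested. With T3 in TRB cells 0 rose and 4 fell, with edgeR, DESeq2 and at an unadjusted edgeR p below 0.05 alike. Over all genes 22.4% rose and 21.9% fell, and the median log2 fold change of the 6 was -0.84. Of the 4, AGT and SERPINA3 reached the filter's 1.04 CPM only in vehicle libraries, so their falls and these counts depend partly on the filter. SERPINA5, too low to be tested, had 14 counts over TRB T3 against 2 over TRB vehicle. AGT and SERPINA5 are named after their values were seen. SERPINA3, an acute phase inhibitor of cathepsin G, averaged 0.437 ± 0.0826 CPM in TRB T3 against 1.42 ± 0.206 CPM in TRB vehicle libraries (log2 -1.67 ± 0.43, adjusted p = 0.000839). SERPINH1, a collagen chaperone without protease inhibition, averaged 78.3 ± 2.08 CPM against 111 ± 2.64 CPM in the same groups (-0.50 ± 0.049, adjusted p = 6.91e-14). SERPINE2, which inhibits thrombin and urokinase, was not called (-0.37 ± 0.39, adjusted p = 0.479). T3 in EV cells changed 0 of the 6 by edgeR's and 0 by DESeq2's adjusted p, and 1, SERPINA3, was lower at an unadjusted edgeR p below 0.05 (-0.92 ± 0.40, adjusted p = 0.215).

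**Figure D4:**
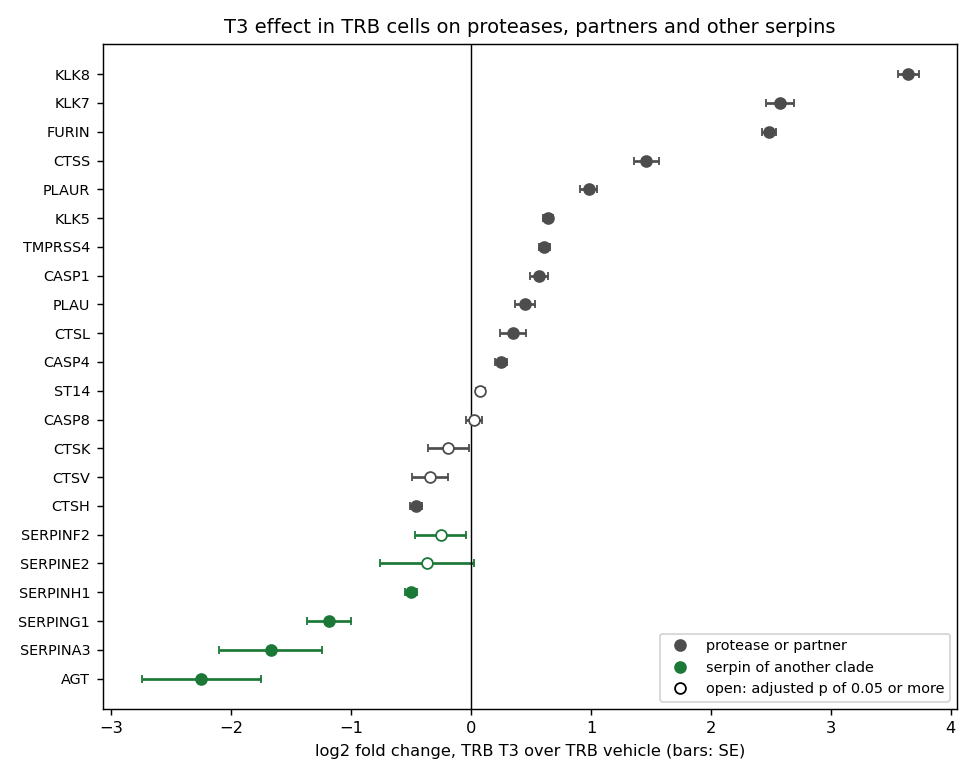
Log2 fold change, TRB T3 over TRB vehicle, of the tested genes of the protease and partner list (grey, 16) and of the list of other serpins (green, 6); bars are SE, and open points had an adjusted p of 0.05 or more (edgeR, n = 3 per group). KLK8, named after its values were seen, stands highest at 3.65, with KLK7 and FURIN at 2.57 and 2.48. CTSH stands lowest of the 16 at -0.46, and all 6 serpins of other clades lie left of 0. Of these 6, AGT and SERPINA3 passed the filter on low counts through vehicle libraries.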

How the data were processed

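RNA of 12 libraries was counted per gene. The library kit was NEBNext Ultra II RNA, per the labels' protocols. Reads went through CASAVA 1.7, STAR 2.7 and HTSeq 0.10 on build hg38, and DESeq2 was used, per the submitters' processing notes; the strand setting was not given in the sources used here, and overlapping genes are uncertain. The files the authors deposited hold whole-number counts per gene. They also deposited normalized values, treated as a score, which equalled the counts times 1 factor per library to within 1 and only checked the columns. The 5 count lines that name no gene (31.87% to 39.24% of alignments) were left out.

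In R 4.3.3, edgeR 4.0.16 (limma 3.58.1) filtered genes by filterByExpr (10 counts, 15 in total), scaled by TMM and fitted 4 group means by robust quasi-likelihood, leaving 8 residual degrees of freedom, with p adjusted by Benjamini-Hochberg over 14549 genes. SE is log2 fold change divided by the square root of F, and intervals are 1.96 SE. Counting intervals are exact at 95% and cover counting error only: without molecular identifiers, reads are not independent molecules. The fit was tested on simulated data. Alternatives were DESeq2 1.42.0, no filter or CPM above 1 in 3 libraries, RLE scaling, fits of only the compared groups, a block for replicate number, thinning to 4241863 counts, SERPINB3 and SERPINB4 added, and each library left out.

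Members and lists were chosen with earlier results of these data known. Named genes are the 9 members, SERPINB10 to SERPINB13, THRB, KLF9, list genes with a direct link to a member, 3 neighbours per cluster side and the 2 genes most like each tested member. A few of these are not reported here. Coordinates are GENCODE 29 (GRCh38). Luminal markers summed to 82.9 to 153 CPM and fibroblast markers to 14.6 to 21.4 CPM over all libraries.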

Additional observations from a re-analysis of the deposited data

Results flagged for a closer look

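For 6 of the 8 members tested the T3 effect differed between the TRB and EV lines by edgeR's interaction term (adjusted p below 0.05 over all genes). That count takes in SERPINB2 and SERPINB3. Of the 6 members at the cutoff in all libraries, 4 were called, against 23.9% of all genes tested. The difference, TRB minus EV on the log2 scale, was 1.97 for SERPINB1, 0.93 for SERPINB9 and 0.28 for SERPINB6, where T3 gave more RNA in the TRB line. It was -1.005 for SERPINB7, -1.52 for SERPINB2 and -2.65 for SERPINB3, where T3 gave less. SERPINB1 differed in opposite directions between the lines: it was higher in TRB than in EV cells with T3 and lower with vehicle. DESeq2 did not call the differences of SERPINB7, SERPINB2 and SERPINB3 (adjusted p = 0.0870, 0.161 and 0.0958). SERPINB2 and SERPINB3 passed the filter on low counts through their EV libraries, and the difference of SERPINB2 was not called with no filter (adjusted p = 0.0991 by edgeR). The values for these rest on 10 and 3 counts over the TRB T3 group.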

How the results depend on the processing

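Of 588 values of members under alternatives, 540 kept direction and side of the threshold, 35 lost their call, 3 gained one and 10 changed sign; SERPINB1 kept its calls in all. Of the 6 members at the cutoff in all libraries, T3 in TRB cells called 5 (3 higher, 2 lower), where 44.4% of all genes were called. Counts of members in this section also take in SERPINB2 and SERPINB3, which passed the filter through their EV libraries. With them T3 in TRB cells called 7 of the 8 members tested (3 higher, 4 lower). The TRB libraries alone, in which SERPINB2 and SERPINB3 did not pass the filter, and thinning both called 5 (3 higher, 2 lower). Leaving out single libraries called 6 to 7. T3 in EV cells called 2 members; no filter, thinning and DESeq2 called 1, and leaving out single libraries 1 to 2. Over all genes that comparison called 660, against 367 thinned, 368 with DESeq2 and 275 to 669 without 1 library (275 without EV vehicle replicate 3, 396 without replicate 1, 341 without EV T3 replicate 2). TRB against EV with vehicle called 2220 genes, and 1430 with DESeq2. The difference of T3 effects was called for 6 of the 8 members tested, SERPINB2 and SERPINB3 among them. Of the 6 members at the cutoff in all libraries it was called for 4, where 23.9% of all genes were called. It was called for 2 members when thinned, 3 with DESeq2 and 3 to 5 without 1 library (3 without TRB T3 replicate 2). SERPINB6 and SERPINB9 lost it when thinned (adjusted p = 0.0815 and 0.0665 by edgeR). SERPINB3 gave no value when thinned. The cause was not tested.

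Every sign change was in a value that was not called in the fit reported. T3 in EV cells gave -0.19 for SERPINB3 with SERPINB4 added and -0.046 to 0.31 without 1 library, and -0.0091 to 0.075 for SERPINB6 without 1 library. TRB against EV with vehicle gave 0.011 thinned and -0.041 to 0.012 without 1 library for SERPINB6, and -0.062 to 0.19 for SERPINB9. T3 in TRB cells gave 0.024 thinned and -0.22 to 0.015 without 1 library for SERPINB8. Among neighbours in that comparison, values without 1 library ran from -0.019 to 0.061 for NQO2, -0.077 to 0.011 for RIPK1 (0.045 thinned), -0.083 to 0.040 for BPHL (0.090 thinned) and -0.020 to 0.075 for TMX3.

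Same-numbered libraries did not deviate together over the genes tested (correlations of -0.12 to 0.083). Low correlations over all these genes cannot decide whether equal numbers mark a shared culture or day, and the labels do not say. With the replicate number as a block, T3 in TRB cells called 7 members and 6437 genes, T3 in EV cells 2 and 647, TRB against EV 3 and 2195 with vehicle and 7 and 5898 with T3, and the difference 6 and 3493; none of 71 named values changed its call. Depth limits SERPINB2, SERPINB3, SERPINB4 and SERPINB13, each with 10 or fewer counts over the TRB T3 group.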
